A study of Mus with 15 samples.

Results

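The mitochondrial carriers of the Slc25 family were taken as every protein-coding gene of the deposited matrix whose symbol is Slc25a followed by a number, together with Ucp2 and Ucp3, which belong to the same family. The rule found 49 genes among 55471 rows, and 45 of the 49 carry the mitochondrial carrier domain in the annotation that the matrix holds. RNA had been sequenced from adipose tissue of wild type C57BL/6 mice aged 7 weeks, in 5 control samples, 5 fat grafts taken after 3 days and 5 taken after 7 days. Fat pad, sex and the source of each graft are not given in the labels, nor whether samples of a group came from separate animals, so p-values measure the spread between these samples.

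Carriers of this family sit in the inner mitochondrial membrane and exchange small molecules between the matrix and the cytosol. They pass nucleotides, phosphate, keto acids, amino acids, acylcarnitines and cofactors, so that oxidation in the matrix and synthesis in the cytosol can share substrates. In fat cells the citrate carrier is known for delivering the carbon from which fatty acids are made. Members of the uncoupling branch are related to Ucp1, the heat-producing protein of brown fat, whose symbol lies outside the rule.

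Levels are CPM, read counts set to a common library size after scaling between samples, and changes are log2 fold changes ± SE from limma-voom over 16051 genes, called at a Benjamini-Hochberg adjusted p under 0.05. Samples held 17109216 to 31997959 assigned reads. Transcripts of the mitochondrial genome made up 9.01% to 14.9% of the reads in controls, 2.35% to 4.02% in day 3 grafts and 2.17% to 2.89% in day 7 grafts. The 8 adipocyte markers were detected in every group and summed to 11400 to 36300 CPM in controls, 1820 to 7180 CPM in day 3 grafts and 1090 to 2440 CPM in day 7 grafts. The 8 macrophage markers summed to 1300 to 3560, 4740 to 11000 and 8840 to 12600 CPM in the same order, and the 5 fibroblast and progenitor markers to 1190 to 5970, 11800 to 25100 and 23800 to 28400 CPM. Collagen transcripts led that last sum, with Col3a1 at 2280, 16400 and 20100 CPM on average and Col1a1 at 390, 4200 and 6000 CPM. Pdgfra was also higher, but Dpp4 averaged 87.9, 76.2 and 44.1 CPM (called lower at day 7). Pi16 averaged 199, 187 and 122 CPM and was not called. Lymphocyte markers were far lower in grafts. The 4 B cell markers summed to 114 to 1390 CPM in controls, 2.7 to 5.81 CPM at day 3 and 7.53 to 21.1 CPM at day 7. The 4 T cell markers summed to 12.6 to 312, 1.1 to 3.6 and 2.64 to 13.0 CPM, with control 4 the lowest control for both. In these bulk samples fewer cells of a type and less RNA per cell cannot be told apart, and the part of these marker shifts in the carrier results was not tested.

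Several libraries stood apart from their groups. Control 2 held 3480 CPM of skeletal muscle marker transcripts against 21.7 to 346 CPM in the other controls. Control 4 held the highest adipocyte marker sum, 36300 CPM, and 114 CPM of B cell markers against 866 to 1390 CPM in the other controls. Control 5 held 3560 CPM of macrophage markers against at most 1580 CPM in the other controls. Day 3 graft 1, at 1820 CPM of adipocyte and 11000 CPM of macrophage markers, lay within the ranges of the day 7 grafts for both. Day 7 graft 5 held 2.64 CPM of T cell markers, against 10.5 to 13.0 CPM in the other day 7 grafts and 1.10 to 3.60 CPM in day 3 grafts.

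In day 3 grafts most measured carriers were lower than in control fat. Of the 43 members with enough reads to test, 28 were lower, 8 were higher and 7 did not pass the test, where 30.3% of all tested genes were called lower, 30.1% higher and 60.4% in either direction. The median log2 change was -0.69 over the members and -0.02 over all tested genes. A fitted change of at least 2-fold was seen in 17 members that were lower and 3 that were higher. In 23 members every day 3 graft lay below every control, and in 5 every graft lay above every control, against 19.9% and 20.6% of all tested genes. The lower counts include Slc25a48, which only the controls gave enough reads to test. The higher counts include Slc25a43, tested only through its levels in the grafts, so neither is independent support. Without control 2, day 3 graft 1 and day 7 graft 5, a set chosen after seeing the data, the counts were 26 lower and 7 higher, and without controls 4 and 5 they were 26 and 8. Leaving out control 3 alone brought Slc25a4, Slc25a15, Slc25a34 and Slc25a36 past the threshold as lower, and leaving out control 4 or day 3 graft 5 did so for Slc25a40.

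Day 7 grafts gave the same number of calls against control fat. Again 28 of 43 members were lower and 8 higher, where 28.4% of all tested genes were called lower, 32.2% higher and 60.7% in either direction. The member median was -0.56, against 0.03 over all tested genes. At least 2-fold changes numbered 18 lower and 3 higher, and groups that did not overlap numbered 25 lower and 7 higher, beside 19.8% and 22.7% of all tested genes. Slc25a48 is again among the lower counts and Slc25a43 among the higher, with the same limit. The comparisons with control share the same 5 control samples, so their values are set side by side here. On the deposited TPM values (transcript levels corrected for gene length), which the authors scaled to a fixed sum per sample, the median of all tested genes moved to 0.22 at day 3 and 0.33 at day 7, and the member median to -0.33 and -0.15. Relative to all tested genes the member median was then -0.55 and -0.48, and calls numbered 21 lower and 8 higher at day 3 and 19 lower and 11 higher at day 7. These TPM calls test against 0, not against the shifted median. The calls lost on TPM were those of Slc25a3, Slc25a5, Slc25a11, Slc25a28, Slc25a32, Slc25a38 and Slc25a46 at both times, with Slc25a17 and Slc25a53 at day 7, and the 3 gained were Slc25a4, Slc25a36 and Slc25a37 at day 7. Without controls 4 and 5 the day 7 counts were 27 lower and 8 higher, and without control 2, day 3 graft 1 and day 7 graft 5 they were 27 and 7.

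**Figure D1:**
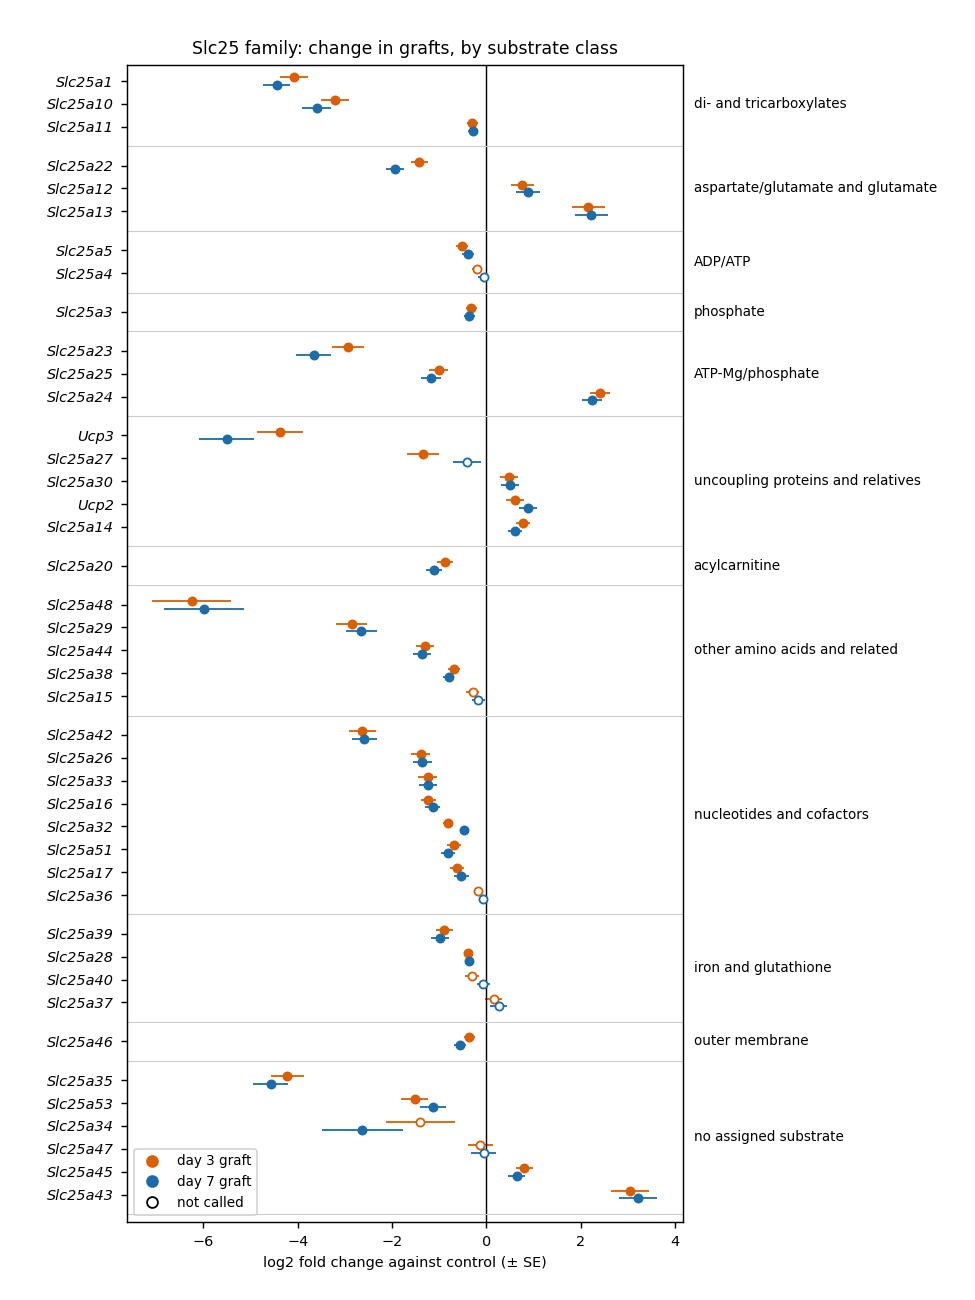
Log2 fold change against control (x axis, ± SE) of each tested member described here in day 3 and day 7 grafts, grouped by the substrate its protein is assigned to; open points did not pass the test. Di- and tricarboxylate carriers lie left of 0, while aspartate/glutamate, ATP-Mg/phosphate and uncoupling groups hold members on both sides.

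The carriers of citrate and dicarboxylates were among the largest changes. Slc25a1, the citrate carrier (ENSMUSG00000003528, chromosome 16, 17925223 to 17928219, minus strand, mm10), stood at 1060, 1100, 627, 1540 and 305 CPM in controls 1 to 5. It stood at 38.2, 50.9, 56.1, 49.0 and 46.1 CPM in the day 3 grafts and at 31.0, 39.7, 38.5, 37.9 and 39.1 CPM in the day 7 grafts. Every graft lay far below the lowest control, control 5. The fitted log2 change was -4.08 ± 0.29 at day 3 and -4.45 ± 0.29 at day 7, or 17.0-fold and 21.8-fold lower, with limma-voom adjusted p of 1.68e-07 and 7.4e-08.

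Slc25a10, which exchanges malate and succinate for phosphate, read 336, 259, 197, 320 and 95.5 CPM in controls, 19.3, 37.4, 24.1, 16.4 and 27.3 CPM at day 3, and 16.9, 20.8, 18.3, 20.6 and 15.2 CPM at day 7. Its groups did not overlap either, and the log2 change was -3.21 ± 0.30 and -3.60 ± 0.31 (limma-voom adjusted p = 8.97e-07 and 3.73e-07). Slc25a11, the oxoglutarate carrier of the malate-aspartate shuttle, differed far less. It read 105, 87.8, 79.5, 111 and 75.0 CPM in controls, 70.3, 68.4, 78.9, 77.1 and 74.4 CPM at day 3, and 74.3, 84.1, 75.4, 73.0 and 66.5 CPM at day 7. Its log2 change of -0.30 ± 0.11 and -0.28 ± 0.11 passed the test (limma-voom adjusted p = 0.0307 and 0.0383) with overlapping groups. On TPM the day 7 value was 0.11, which is -0.22 relative to the median of all tested genes. The call was lost when 1 of 3 libraries (control 1, day 3 graft 1 or 2) was left out at day 3, and 1 of 6 (controls 1 and 2 and day 7 grafts 1, 3, 4 and 5) at day 7. Slc25a21, the oxodicarboxylate carrier, reached at most 0.291 CPM and was not tested.

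The carriers of aspartate and glutamate moved in both directions. Slc25a13 (citrin), an aspartate/glutamate exchanger of the malate-aspartate shuttle, read 2.46, 2.38, 3.30, 1.01 and 3.22 CPM in controls, 11.4, 8.08, 11.4, 12.2 and 8.91 CPM at day 3, and 11.5, 15.6, 9.64, 13.5 and 6.14 CPM at day 7. Every graft exceeded every control, and the log2 change was 2.16 ± 0.35 and 2.22 ± 0.35 (limma-voom adjusted p = 0.000104 and 7.21e-05). Slc25a12 (aralar), the other exchanger of this kind, read 17.7, 24.9, 26.1, 8.13 and 24.0 CPM in controls, 39.6, 23.7, 30.9, 33.1 and 29.9 CPM at day 3, and 33.5, 31.6, 34.5, 32.8 and 36.9 CPM at day 7. Day 3 graft 2 lay within the controls, and the day 7 grafts all lay above them. The log2 change was 0.76 ± 0.25 and 0.88 ± 0.25 (limma-voom adjusted p = 0.0173 and 0.00684). Without control 4, the lowest control for this gene, it was 0.40 and 0.50 (limma-voom adjusted p = 0.0249 and 0.0072).

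Slc25a22, a glutamate carrier, changed the opposite way. It read 102, 119, 84.5, 120 and 63.4 CPM in controls, 33.3, 47.0, 35.6, 27.2 and 37.1 CPM at day 3, and 20.4, 26.1, 27.8, 30.7 and 21.5 CPM at day 7. No graft reached the lowest control, and the log2 change was -1.42 ± 0.18 and -1.93 ± 0.19 (limma-voom adjusted p = 1.55e-05 and 1.23e-06). Slc25a18, the second glutamate carrier, reached at most 0.174 CPM and was not tested.

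The calcium-regulated carriers of ATP-Mg and phosphate exchanged their order. These proteins set the size of the matrix adenine nucleotide pool, and Slc25a23, Slc25a24 and Slc25a25 carry calcium-binding EF hands. Slc25a24 (ENSMUSG00000040322, chromosome 3, 109123149 to 109168457, plus strand) read 12.9, 13.4, 13.6, 18.1 and 32 CPM in controls, 112, 68.8, 86.7, 92.9 and 94.7 CPM at day 3, and 87.6, 82.7, 73.6, 86.6 and 72.8 CPM at day 7. All 10 grafts lay above the highest control, control 5. Its log2 change was 2.40 ± 0.21 and 2.24 ± 0.21, or 5.29-fold and 4.72-fold higher (limma-voom adjusted p = 5.29e-07 and 7.06e-07).

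Slc25a23 read 96.8, 85.4, 56.6, 153 and 50.1 CPM in controls, 5.21, 17.1, 10.3, 9.58 and 15 CPM at day 3, and 4.19, 9.11, 5.88, 7.09 and 6.85 CPM at day 7. Every graft was under the lowest control, and the log2 change was -2.93 ± 0.34 and -3.66 ± 0.37 (limma-voom adjusted p = 5.61e-06 and 1.76e-06). Slc25a25 read 24.4, 36.7, 39.9, 56.4 and 26.3 CPM in controls, 16.2, 21.9, 19.2, 14.1 and 17.3 CPM at day 3, and 14.9, 16.8, 15.9, 18.2 and 12.9 CPM at day 7. It was lower by -1.01 ± 0.20 and -1.17 ± 0.21 on the log2 scale (limma-voom adjusted p = 0.000676 and 0.0002). The other 2 genes of this branch were almost silent, with 2 reads of Slc25a41 and none of Slc25a54 in all 15 samples; a count of 0 allows up to 0.0938 to 0.175 CPM per library, counting error only.

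Because of the correction for gene length, TPM levels of related carriers could be compared within a sample. Slc25a24 made up 8.58%, 8.54%, 10.5%, 6.96% and 26.3% of the summed TPM of Slc25a23, Slc25a24 and Slc25a25 in the controls. The share was 83.2%, 62.4%, 69.7%, 77.6% and 71.7% in day 3 grafts and 80.6%, 73.7%, 76.0%, 75.0% and 77.1% in day 7 grafts. The leading gene of the trio was thus Slc25a23 in control fat, at 34.1 TPM on average, and Slc25a24 in grafts, at 39.7 and 37.7 TPM. The mean share went from 12.2% ± 8.02 (SD, n = 5) to 72.9% ± 7.89 and 76.5% ± 2.60. An exact two-sided permutation test over the samples gave p = 0.00794 for each graft group, the smallest that 5 against 5 allows (adjusted p = 0.0159 over 18 share tests).

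Among all members with an EF-hand annotation, all 5 passed the test at both times. Over the whole family 36 of 43 tested members passed at each time, and over all tested genes 60.4% (day 3) and 60.7% (day 7). The 3 EF-hand members that were higher were Slc25a12, Slc25a13 and Slc25a24, and the 2 that were lower were Slc25a23 and Slc25a25. The share of Slc25a13 in the aspartate/glutamate pair was 9.61% ± 1.27 (SD, n = 5) in controls, 22.2% ± 2.64 in day 3 grafts and 22.4% ± 7.15 in day 7 grafts. The exact permutation p was 0.00794 for each graft group (adjusted p = 0.0159), and the lowest graft, day 7 graft 5, stood at 11.4%, just above the highest control at 11.3%. Slc25a12 stayed the more abundant of the pair in every sample.

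**Figure D2:**
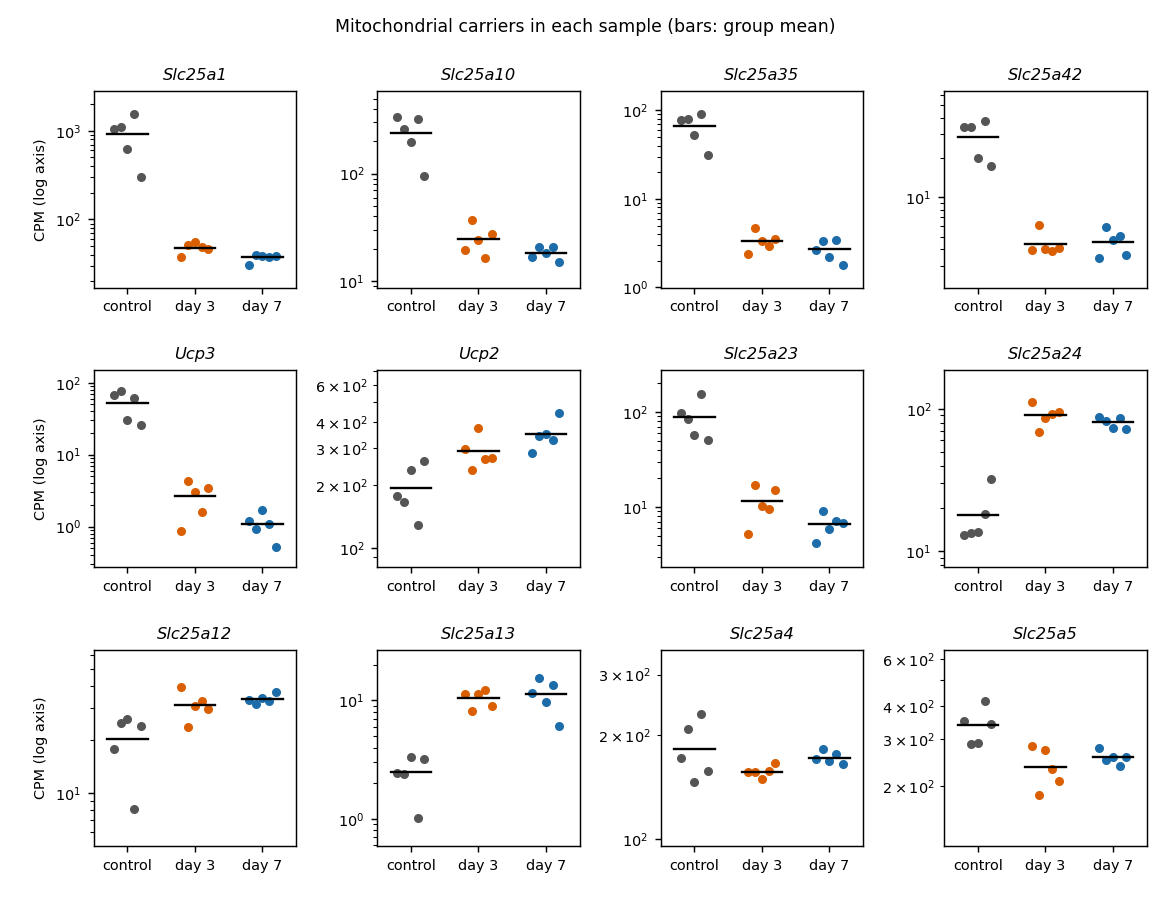
CPM on a log axis (y) of 12 carriers in each control, day 3 graft and day 7 graft, with bars at the group means. Slc25a1, Slc25a10, Slc25a35, Slc25a42, Ucp3 and Slc25a23 lie lower in every graft than in every control, Slc25a24 and Slc25a13 lie higher, and Slc25a4 overlaps.

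The uncoupling branch also split. Ucp3, known from muscle and brown fat, read 67.3, 77.6, 30.6, 62.0 and 25.6 CPM in controls, 0.881, 4.27, 3.00, 1.59 and 3.47 CPM at day 3, and 1.20, 0.934, 1.68, 1.09 and 0.527 CPM at day 7. Each graft lay far below the lowest control, and the log2 change was -4.37 ± 0.49 and -5.51 ± 0.58 (limma-voom adjusted p = 4.16e-06 and 2.32e-06). The summed level of 7 brown adipocyte markers, Ucp1 included, was 171 to 760 CPM in controls, 12.3 to 19.1 CPM at day 3 and 5.67 to 10 CPM at day 7, and its part in the Ucp3 result was not tested. Without control 2, the library with the most skeletal muscle marker transcripts, the Ucp3 change was -4.20 and -5.34.

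Ucp2, which is known from macrophages and other immune cells as well as fat, lies 6.9 kb beyond Ucp3 on the same strand of chromosome 7 and moved the other way. It read 177, 165, 236, 129 and 261 CPM in controls, 296, 237, 376, 267 and 270 CPM at day 3, and 284, 342, 349, 329 and 444 CPM at day 7. Day 3 graft 2 fell between controls, while all day 7 grafts were above them. The log2 change was 0.61 ± 0.19 and 0.88 ± 0.19 (limma-voom adjusted p = 0.0109 and 0.000982). Macrophage marker sums were higher in the same grafts, as given above, and their part was not tested.

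Ucp2 held 76.1%, 70.4%, 90.7%, 67.4% and 91.7% of the TPM of the pair in controls, and 98.5% to 99.8% in day 3 grafts and 99.7% to 99.9% in day 7 grafts. The exact permutation p was 0.00794 for either graft group against control (adjusted p = 0.0159). Of the relatives of this branch, Slc25a14 was higher, at 3.94 ± 0.642 CPM (SD, n = 5) in controls, 6.73 ± 0.822 at day 3 and 5.97 ± 0.650 at day 7, with log2 changes of 0.77 and 0.60 (limma-voom adjusted p = 0.000509 and 0.00314). Slc25a30 read 20, 20.4, 21.5, 41.2 and 37.1 CPM in controls, 38.9, 30.5, 36.8, 44.4 and 37.1 CPM at day 3, and 36.3, 35.0, 36.8, 35.0 and 46.8 CPM at day 7. Its log2 change of 0.47 ± 0.19 and 0.49 ± 0.19 passed narrowly (limma-voom adjusted p = 0.0494 and 0.0418), controls 4 and 5 lay among the grafts, and the call was lost when any of 11 single libraries at day 3 or 10 at day 7 was left out. Without controls 4 and 5 its change was 0.86 and 0.87. Slc25a27 was lower at day 3, at 1.92 ± 1.48 CPM against 4.09 ± 0.434 CPM in controls (log2 -1.35 ± 0.34, limma-voom adjusted p = 0.00308), and did not pass at day 7 (3.06 ± 0.299 CPM, log2 -0.41, limma-voom adjusted p = 0.25). Even so, the day 7 grafts, at 2.56 to 3.30 CPM, all lay below the controls, at 3.50 to 4.57 CPM. With only these 2 groups fitted, Slc25a27 passed at day 7 (limma-voom adjusted p = 0.0292).

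The carriers of ADP/ATP and phosphate, which feed ATP synthase, changed little. Slc25a4, the ADP/ATP carrier of muscle and heart, read 172, 208, 146, 231 and 157 CPM in controls, 156, 156, 149, 157 and 166 CPM at day 3, and 170, 182, 168, 176 and 165 CPM at day 7. The groups overlapped and no change was called on counts (log2 -0.20, 95% interval -0.44 to 0.04, and -0.06, -0.31 to 0.18), and the day 7 value on TPM, 0.34 (limma-trend adjusted p = 0.00572), was 0 relative to the median of all tested genes. Slc25a5, the ADP/ATP carrier of most growing cells, read 350, 289, 291, 418 and 342 CPM in controls, 284, 185, 274, 231 and 208 CPM at day 3, and 278, 251, 258, 237 and 256 CPM at day 7. Every graft lay under the lowest control, and the log2 change was -0.52 ± 0.13 and -0.39 ± 0.13 (limma-voom adjusted p = 0.00383 and 0.0211), which on TPM was -0.23 and 0.01 (-0.45 and -0.32 relative to all tested genes) and was not called; at day 7 it was also lost without day 7 graft 4 and without controls 4 and 5.

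Slc25a3, the phosphate carrier, read 344, 351, 291, 474 and 322 CPM in controls, 257, 316, 283, 263 and 293 CPM at day 3, and 280, 265, 272, 247 and 311 CPM at day 7. Its groups overlapped, and the log2 change of -0.32 ± 0.12 and -0.36 ± 0.12 passed the test (limma-voom adjusted p = 0.0335 and 0.019) but on TPM was 0.07 at day 7, or -0.26 relative to all tested genes. Leaving out control 1, control 2 or day 3 graft 1, 3 or 4 ended the call at day 3, and leaving out day 7 graft 4 ended it at day 7. The share of Slc25a5 in the ADP/ATP pair was 75.8% ± 3.34 (SD, n = 5) in controls, 71.3% ± 4.13 at day 3 and 71.5% ± 1.63 at day 7. Neither difference passed (exact permutation p = 0.0873 and 0.0397, adjusted p = 0.121 and 0.0595). Slc25a31, the testis form, reached at most 0.320 CPM and was not tested, and a processed pseudogene of Slc25a5 drew 2 reads in all.

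Slc25a20, which brings acylcarnitines into the matrix for fatty acid oxidation, read 122, 87.8, 57.4, 133 and 87.8 CPM in controls, 47.5, 48.0, 53.6, 53.8 and 51.0 CPM at day 3, and 43.2, 44.7, 43.7, 41.4 and 44.1 CPM at day 7. It was lower in each graft than in each control, with a log2 change of -0.88 ± 0.17 and -1.11 ± 0.17 (limma-voom adjusted p = 0.000415 and 6.01e-05). The carnitine palmitoyltransferases on either side of it, which are no members, differed in direction. Cpt1a went from 63.4 CPM in controls to 202 CPM at both times (log2 1.71 and 1.72), Cpt1b from 42.0 to 3.43 and 4.07 CPM (-3.40 and -3.14), and Cpt2 from 219 to 42.5 and 32.8 CPM (-2.29 and -2.64).

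Of the 9 carriers of nucleotides and cofactors, 8 were called lower and none higher at each time, where 30.3% (day 3) and 28.4% (day 7) of all tested genes were called lower. Their median log2 change was -1.23 and -1.14. Slc25a42, a carrier of coenzyme A, read 34.2, 33.9, 19.8, 38.0 and 17.2 CPM in controls, 3.97, 6.12, 4.01, 3.85 and 4.11 CPM at day 3, and 3.45, 5.94, 4.71, 5.06 and 3.65 CPM at day 7. It was lower by -2.63 ± 0.28 and -2.59 ± 0.27 (limma-voom adjusted p = 2.38e-06 and 2.11e-06), without overlap between groups.

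The pyrimidine nucleotide carriers differed from each other. Slc25a33 read 8.97, 9.06, 5.30, 9.94 and 6.50 CPM in controls, 2.8, 3.38, 3.50, 3.85 and 2.78 CPM at day 3, and 3.37, 2.60, 3.60, 2.69 and 4.18 CPM at day 7. All grafts lay below all controls (log2 -1.25 ± 0.21 and -1.24 ± 0.20, limma-voom adjusted p = 0.000123 and 0.000111). Slc25a36 read 74.0, 77.2, 70.5, 87.9 and 81.0 CPM in controls, 69.8, 68.4, 62.9, 71.2 and 71.5 CPM at day 3, and 76.7, 75.2, 66.2, 77.9 and 71.6 CPM at day 7. It overlapped and was not called (log2 -0.18, 95% interval -0.35 to -0.01, and -0.08, -0.26 to 0.09), and its day 7 value on TPM, 0.38 (limma-trend adjusted p = 0.0284), was 0.05 relative to all tested genes. The share of Slc25a33 in this pair was 17.2% ± 3.29 (SD, n = 5) in controls, 8.64% ± 1.81 at day 3 and 8.14% ± 1.96 at day 7, with an exact permutation p of 0.00794 for each (adjusted p = 0.0159).

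The remaining cofactor carriers were lower by smaller amounts. Slc25a16 went from 52.6 CPM in controls to 22.0 and 23.4 CPM (log2 -1.23 and -1.14), and Slc25a26, the S-adenosylmethionine carrier, from 13.1 to 4.84 and 4.93 CPM (-1.39 and -1.36). Slc25a26 lies across the opposite strand from Lrig1, which averaged 47.5 CPM over all samples against 7.61 CPM for the carrier, and no source used here says whether the counting used strand. Slc25a51, the NAD carrier, went from 162 to 98.7 and 89.9 CPM (-0.68 and -0.82), and Slc25a17, the peroxisomal member, from 63.6 to 40.1 and 43.0 CPM (-0.63 and -0.53). Without controls 4 and 5 the Slc25a17 change was -0.39 and -0.30. Slc25a32, the folate carrier, went from 37.9 ± 4.32 CPM (SD, n = 5) to 21.4 ± 1.34 and 27.2 ± 2.28 CPM (-0.82 ± 0.10 and -0.47 ± 0.10; limma-voom adjusted p = 8.08e-06 and 0.000655), and on TPM was 0.19 at day 7 without passing, or -0.15 relative to all tested genes.

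Of the mitoferrins, which import iron for heme and iron-sulfur clusters, Slc25a28 was modestly lower on counts and Slc25a37 was not called. Slc25a28 (mitoferrin 2) read 39.9, 45.2, 45.1, 40.2 and 41.9 CPM in controls, 29.0, 38.8, 32.8, 31.4 and 29.9 CPM at day 3, and 32.2, 32.2, 32.7, 33.8 and 33.3 CPM at day 7. It did not overlap and was lower by -0.39 ± 0.09 and -0.37 ± 0.09 (limma-voom adjusted p = 0.00112 and 0.0018), a call that was lost on TPM (-0.12 and -0.03, or -0.33 and -0.37 relative to all tested genes). Slc25a37 (mitoferrin 1), known from red cell precursors, read 69.3, 70.1, 84.1, 35.3 and 69.8 CPM in controls, 76.5, 81.2, 65.6, 64.9 and 64.3 CPM at day 3, and 79.6, 68.3, 78.9, 75.2 and 75.9 CPM at day 7.

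Slc25a37 was not called on counts (log2 0.15, 95% interval -0.23 to 0.53, and 0.26, -0.13 to 0.64), and without control 4 its values were -0.09 and -0.01; on TPM the day 7 value was 0.58 (limma-trend adjusted p = 0.0478), or 0.25 relative to all tested genes. Erythroid marker transcripts summed to 135 to 2750 CPM in controls, 230 to 10600 CPM in day 3 grafts and 578 to 3960 CPM in day 7 grafts. Day 3 graft 2 was the highest of its group for both these markers and Slc25a37, and the part of the markers in the Slc25a37 values was not tested. The share of Slc25a37 in the mitoferrin pair was 30.5% ± 6.44 (SD, n = 5) in controls, 38.7% ± 2.49 at day 3 and 40.5% ± 1.97 at day 7 (exact permutation p = 0.0159 and 0.00794, adjusted p = 0.0286 and 0.0159). Day 3 graft 3, at 36.0%, lay below control 3, at 36.3%. Control 4 stood at 19.6% against 30.8% to 36.3% in the other controls, and without it the day 3 difference was 5.44 in place of 8.19 percentage points (exact permutation, adjusted p = 0.0429). Slc25a39, the glutathione carrier, was lower at 65.5 and 61.3 CPM against 128 CPM (log2 -0.89 and -0.99), and its relative Slc25a40 was not called at 11.8 and 13.8 CPM against 14.5 CPM.

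**Figure D3:**
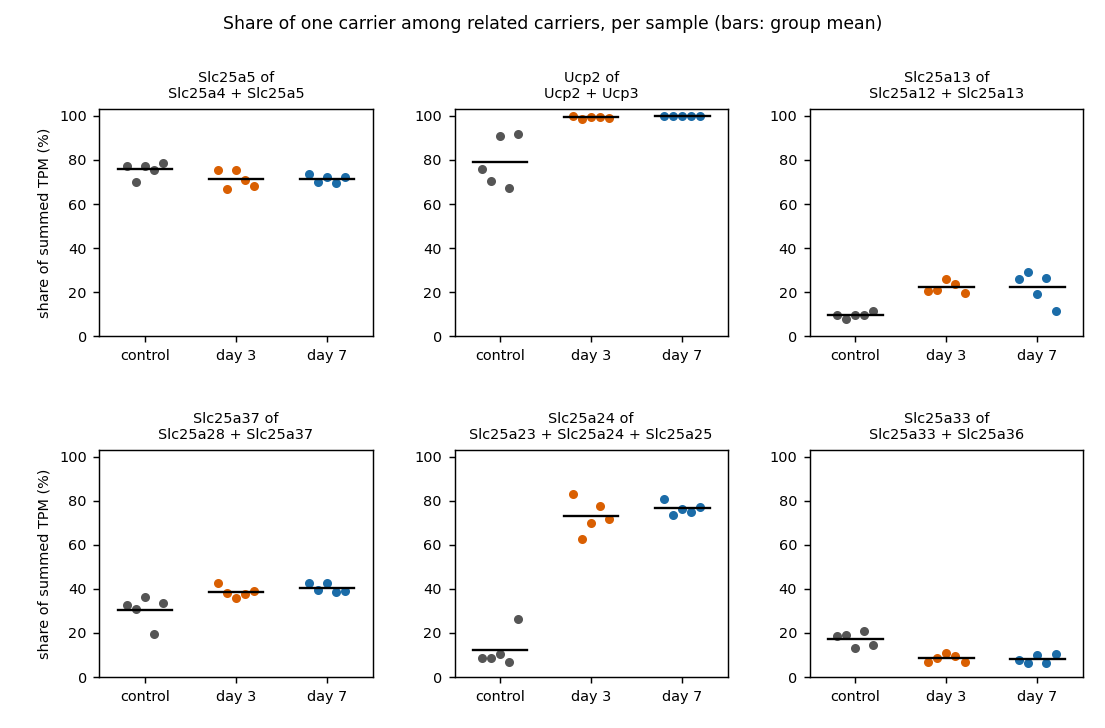
Share of summed TPM (y axis, percent) held by 1 carrier among related carriers, for 6 sets, with a point per sample and bars at the group means. Slc25a24 goes from 6.96% to 26.3% in controls to 62.4% to 83.2% in grafts, and the Slc25a5 share overlaps between groups.

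Carriers of other amino acids and related compounds had 4 of 5 tested members lower and none higher at each time. The share called lower over all tested genes was 30.3% at day 3 and 28.4% at day 7. Slc25a44, a carrier of branched-chain amino acids, went from 84.8 ± 30.6 CPM (SD, n = 5) to 32.7 ± 2.32 and 31.3 ± 1.78 CPM (log2 -1.30 and -1.36, limma-voom adjusted p = 4.93e-05 and 2.99e-05). Slc25a38, the glycine carrier of heme synthesis, went from 15.2 to 9.51 and 8.85 CPM (-0.69 and -0.80), and Slc25a29, a carrier of basic amino acids, from 3.69 to 0.509 and 0.575 CPM (-2.86 and -2.65). Slc25a48 was at 6.61, 2.79, 1.04, 2.19 and 0.806 CPM in controls, and the 10 grafts together gave 2 reads at day 3 and 3 reads at day 7. It was called lower at both times (limma-voom adjusted p = 2.05e-05 and 2.78e-05). Only the controls gave Slc25a48 enough reads to test, so its call is no independent support. Slc25a15, the ornithine carrier, was not called (14.7, 12.0 and 13.1 CPM), and Slc25a2 reached at most 0.262 CPM.

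Of the 6 carriers without an assigned substrate, Slc25a35 changed as much as the citrate carrier. It read 78.5, 79.2, 52.1, 90.9 and 31.7 CPM in controls, 2.36, 4.74, 3.38, 2.92 and 3.54 CPM at day 3, and 2.66, 3.37, 2.22, 3.45 and 1.81 CPM at day 7. Its log2 change was -4.22 ± 0.35 and -4.57 ± 0.37, or 18.7-fold and 23.7-fold lower (limma-voom adjusted p = 4.42e-07 and 2.59e-07). Rangrf, on the opposite strand across part of it, averaged 3.26 CPM over all samples, and its part in the reads left in the grafts was not tested. Other described carriers also have a gene across the opposite strand. Over all samples Rnf167 averaged 48.6 CPM against 80.0 CPM for Slc25a11, and Naif1 7.31 against 23.4 CPM for Slc25a25. Zcchc18 averaged 2.05 against 8.25 CPM for Slc25a53. Slc25a45 read 26.8, 24.3, 33.3, 15.9 and 33.1 CPM in controls, 55.2, 41.3, 45.2, 42.5 and 41.6 CPM at day 3, and 36.9, 45.7, 43.5, 41.9 and 33.6 CPM at day 7.

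Slc25a45 was thus higher in every graft than in every control, the lowest graft, day 7 graft 5, by a narrow margin, with log2 changes of 0.80 ± 0.18 and 0.64 ± 0.18 (limma-voom adjusted p = 0.00121 and 0.00577); without control 4 the day 7 value was 0.40 (limma-voom adjusted p = 0.0157). Slc25a43, the neighbour of Slc25a5 on the X chromosome at a distance of 18.4 kb, was rare, at 0.0453 to 0.379 CPM in controls, 1.03 to 1.73 CPM at day 3 and 1.23 to 2.03 CPM at day 7 (log2 3.04 ± 0.41 and 3.21 ± 0.41, limma-voom adjusted p = 2.22e-05 and 1.18e-05). Only its levels in the grafts gave Slc25a43 enough reads to test, so its call is no independent support. The size of its change depended on the fit, down to 1.00 at day 3 and 1.11 at day 7 in other settings. Slc25a53 went from 14.2 to 4.56 and 5.95 CPM (-1.52 and -1.13). Slc25a34 reached 22.2 CPM in control 5 against 0.860 to 5.06 CPM in the other controls, and was called lower at day 7 (log2 -2.63 ± 0.85, limma-voom adjusted p = 0.015) but not at day 3 (-1.40 ± 0.74, limma-voom adjusted p = 0.113). Without control 5 its values were -0.71 and -1.93, and without controls 4 and 5 its day 7 value was -1.44. Slc25a47 was not called, at 1.28 to 2.49 CPM in controls and 1.04 to 2.56 CPM in grafts, and Slc25a46, the member of the outer membrane, went from 72.3 to 55.8 and 48.4 CPM (-0.36 and -0.56), a call lost at day 3 without day 3 graft 3 and without controls 4 and 5.

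Neighbouring genes of the family did not always move alike. Among 5 pairs of members less than 50 kb apart, Ucp3 and Ucp2 differed in direction. Slc25a5 and Slc25a43 did so as well, but Slc25a43 had enough reads to test only through the grafts. That pair is no independent support, and the Slc25a5 change was not called on TPM. Slc25a29 was lower while Slc25a47, 0.162 kb away on the other strand, was not called. In the pairs of Slc25a23 with Slc25a41 and of Slc25a24 with Slc25a54 the second gene was not tested.

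The make-up of the family changed with these shifts. In control fat Slc25a1 had the highest mean level per length, at 974 ± 361 TPM (SD, n = 5), ahead of Slc25a5 at 380 ± 41.9 and Slc25a3 at 377 ± 14.1, which did not differ beyond their spread. Slc25a10 at 161 ± 57.7, Ucp2 at 121 ± 55.7 and Slc25a4 at 120 ± 12.5 TPM followed, with overlapping spreads. In day 3 grafts the order of means was Slc25a3 at 378 ± 42.6, Slc25a5 at 327 ± 61.6, Ucp2 at 249 ± 48.1 and Slc25a4 at 129 ± 7.67 TPM, with Slc25a1 in 7th place at 65.9 ± 7.32 TPM. Day 7 grafts kept that order of means, with Slc25a3 at 396 ± 8.93, Slc25a5 at 383 ± 29.9, Ucp2 at 328 ± 53.7, Slc25a4 at 153 ± 15.3 and Slc25a1 at 56.5 ± 8.91 TPM. The order of the leading genes varied between grafts. Slc25a5 exceeded Slc25a3 in day 3 grafts 1 and 3 and day 7 graft 1, and Ucp2 was highest in day 7 graft 5.

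Slc25a1 alone supplied 31.5% ± 9.29 (SD, n = 5) of the TPM of the family in controls, ranging from 17.1% to 40.1%, against 3.67% ± 0.405 at day 3 and 2.85% ± 0.380 at day 7. Ucp2 supplied 4.16% ± 2.25, 13.8% ± 2.20 and 16.7% ± 3.03 in the same order. The family summed to 3020 ± 394 TPM in controls, 1800 ± 101 at day 3 and 1970 ± 57.6 at day 7. Relative to the summed TPM of the nuclear respiratory chain genes this was 0.107 ± 0.0094, 0.106 ± 0.00507 and 0.114 ± 0.00526, values that overlapped between groups. These sums and shares are descriptions without a test.

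**Figure D4:**
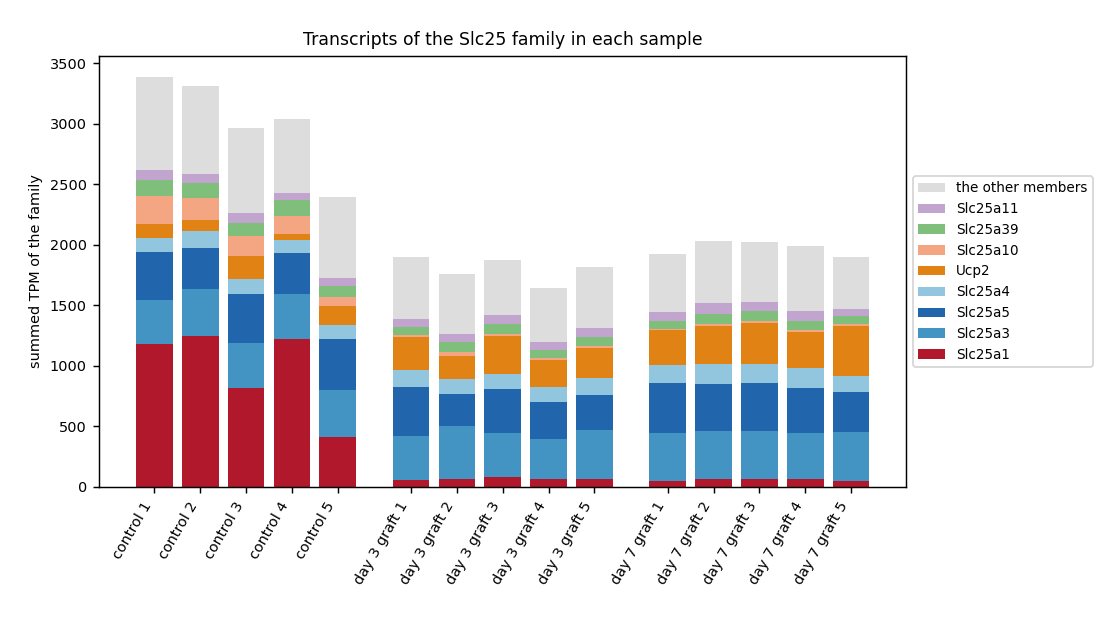
Summed TPM of the family (y axis) in each of the 15 samples, stacked by the most abundant carriers and the other members. The Slc25a1 layer is 17.1% to 40.1% of the bar in controls and 2.28% to 4.14% in grafts.

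Between 3 and 7 days no carrier passed the test, where 4.88% of all tested genes were called, and 3.18% higher. By limma-voom 0 of 43 members were called and 4 had an unadjusted p under 0.05, and limma-trend on CPM or TPM called 0 as well. The closest was Slc25a32, at 23.3, 21.2, 19.9, 20.4 and 22.1 CPM in day 3 grafts and 29.5, 25.5, 24.8, 26.8 and 29.7 CPM in day 7 grafts. These values did not overlap, and the log2 difference was 0.35 ± 0.10 (limma-voom adjusted p = 0.0582), which passed in 10 of the other fits, among them those without control 3 or control 4. Among the 4 with an unadjusted p under 0.05 were also Slc25a27 (0.94 ± 0.34) and Slc25a22 (-0.51 ± 0.19), with limma-voom adjusted p of 0.128 and 0.142; Slc25a27 passed without day 3 graft 2, the highest of its group at 4.31 CPM. Groups did not overlap in 2 members that were higher, Slc25a32 and Slc25a53, and 2 that were lower, among them Slc25a20, against 4.56% and 3.32% of all tested genes, or 7.88% in either direction. In 34 of 43 members the 95% interval of the difference lay within 1 log2 unit of 0, and in the other 9 it reached beyond a 2-fold difference.

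Other transport genes of mitochondria were counted beside the family. For comparison, 30.3% of all tested genes were called lower and 30.1% higher at day 3, and 28.4% and 32.2% at day 7. Of 27 transport proteins of mitochondrial membranes whose symbols lie outside the rule, among them Mtch1 and Mtch2, outer membrane relatives of the carriers, 14 were lower and 8 higher at day 3, and 15 and 8 at day 7, with medians of -0.41 at both times. They include the pyruvate carrier subunits Mpc1, at 525 CPM in controls against 54.8 and 59.9 CPM (log2 -3.18 and -3.05), and Mpc2, at 150 CPM against 24.5 and 19.8 CPM (-2.55 and -2.86). The inhibitory calcium uniporter subunit Mcub went from 5.03 to 50.9 and 32.4 CPM (3.38 and 2.75). Of 16 protein import genes 6 (37.5%) were lower and 1 higher at day 3, near the share of all tested genes for lower calls, and 10 (62.5%) and 0 at day 7. Of 80 nuclear respiratory chain genes 72 (90.0%) were lower and 1 higher at each time, with medians of -0.93 and -1.08. Solute carriers outside the family had another balance, with 49 lower and 82 higher of 200 tested at day 3 and 48 and 91 at day 7, and medians of 0.24 and 0.29.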

How the data were processed

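Per the submitters' processing notes, reads were handled with cutadapt 2.8, STAR 2.7.1a and RSEM 1.3.1 on mm10; per the labels, a stranded mRNA kit and 151 bp paired ends were used. The authors deposited estimated read counts, RPKM and TPM for 15 samples. All 55471 rows name a gene. From the deposited counts, scaling factors of 0.746 to 1.14 came from trimmed means of M-values over the tested genes (30% and 5% trimmed); genes were kept at 0.389 CPM (10 counts at the median library) in 5 samples and 15 counts in all. limma-voom (limma 3.58.1, R 4.3.3) fitted 3 group means to all 15 samples, Benjamini-Hochberg adjusted over 16051 genes. A limma test was used because the count columns carry digit separators. The code was tested on simulated data. Shares used deposited TPM and exact permutation over 252 splits. RPKM served as an alternative, but within a sample it differs from TPM by a common factor. A share is then the same on both apart from rounding, so this was no separate check. Values in every sample are given for a fixed panel and the most changed called members of at least 10 CPM. Members, lists and panel were chosen with earlier results of these data known. No 2 samples of a group agreed within sampling noise (lowest chi-square per degree of freedom 19.3 over 30 pairs). Roles of carriers are textbook assignments. The counts cover every tested member, but 1 member is not reported here by name.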

Additional observations from a re-analysis of the deposited data

Results flagged for a closer look

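In 12 of 126 combinations of a tested, described carrier and a group, 1 sample lay far from the other 4 of its group; chance gives about 1 in 20. In controls, Slc25a24 was highest in control 5, at 32 CPM against 12.9 to 18.1 CPM, and its log2 change without that control was 2.63 at day 3 and 2.47 at day 7. Slc25a34 was also highest in control 5, at 22.2 CPM against 0.860 to 5.06 CPM. Slc25a26 was highest in control 4, at 21.4 CPM against 9.81 to 12.0 CPM, and without that control its log2 change was -1.20 at both times. In day 3 grafts, Slc25a34 was highest in graft 2, at 2.96 CPM against 0.865 to 1.14 CPM, as was Slc25a42, at 6.12 CPM against 3.85 to 4.11 CPM. Slc25a45 was highest in day 3 graft 1, at 55.2 CPM against 41.3 to 45.2 CPM, and Slc25a48 had reads in that day 3 graft alone, at 0.0801 CPM. In day 7 grafts, Slc25a1 was lowest in graft 1, at 31.0 CPM against 37.9 to 39.7 CPM, and Slc25a16 was lowest in graft 3, at 19.2 CPM against 23.5 to 25.1 CPM. Day 7 graft 5 was lowest for Slc25a26, at 4.33 CPM against 5.01 to 5.21 CPM, and for Slc25a40, at 11 CPM against 14.0 to 15.1 CPM, and highest for Slc25a30, at 46.8 CPM against 35.0 to 36.8 CPM.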

How the results depend on the processing

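Of the 36 members called at each time, 32 kept their call and direction in every fit that left out 1 sample, and 28 (day 3) and 26 (day 7) did so under every setting tried. Between the graft groups, the number of members called higher was 1 in place of 0 (Slc25a32) with upper quartile scaling, library totals, a filter at 1 CPM, the 2 graft groups fitted alone (there also 1 lower, Slc25a20), the replicate block and, chosen after seeing the data, without controls 4 and 5 or with trimmed means over all rows; it was 2 with sample quality weights (Slc25a27 and Slc25a32) and 0 to 1 when 1 sample was left out (Slc25a32 without control 3 or control 4, Slc25a27 without day 3 graft 2). Over all genes that comparison gave 747 higher and 649 lower with the 2 groups alone and 2135 and 1533 with quality weights, against 510 and 274. On TPM the median of all tested genes was 0.33 at day 7, and values went from below to above 0 for Slc25a11 (0.11), Slc25a3 (0.07), Slc25a32 (0.19), Slc25a36 (0.38), Slc25a4 (0.34) and Slc25a5 (0.01); relative to that median they were -0.22, -0.26, -0.15, 0.05, 0 and -0.32. On TPM 68.0% (day 3) and 74.1% (day 7) of all called genes were higher, against 49.9% and 53.1%. Without a filter the median of all genes was -0.18 and -0.12. Whether equal replicate numbers mark pairs of samples is not known, as the source of each graft is not given. Deviations of samples with equal numbers from their group means correlated at -0.18 to 0.34 over the 3 comparisons. In these, 1, 0 and 2 of 5 samples matched best with their own number, which is too few to decide on pairing. With the replicate block 28 members were lower and 8 higher at each time; at day 3 the call of Slc25a3 was lost (limma-voom adjusted p = 0.0592) and that of Slc25a15 gained (0.0485). For the shares, an exact sign-flip test by replicate number (replicate block) cannot go below p = 0.0625, and differences of 20 and 20.5 (Ucp2), 12.6 and 12.8 (Slc25a13), 8.19 and 9.96 (Slc25a37), 60.7 and 64.3 (Slc25a24), -8.61 and -9.11 (Slc25a33) percentage points then missed the threshold. With 1 sample left out, the Slc25a5 share at day 7 differed from control by -5.71 to -3.58, past the threshold without control 2 (exact permutation, adjusted p = 0.0159), and the Ucp2 share between graft groups by 0.306 to 0.619, past it without day 3 graft 1 (exact permutation, adjusted p = 0.0179). Depth limits the 6 members not tested.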
